A study of Mus musculus with 15 samples.

Results

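Gene expression in macrophages loaded with hollow mesoporous silica nanoparticles (HMSNPs) was compared with that in nontreated macrophages, using 6 of the 15 RNA-sequencing libraries of the study. The members were chosen by their group labels alone, 3 libraries of the HMSNP-treated group and 3 of the Control group, and all 19839 genes that passed a minimum of 10 counts summed over the 15 libraries were tested. Every library came from RAW 264.7 cells, a mouse macrophage-like line transformed by the Abelson leukemia virus, and the labels give no genetic change in any group. The HMSNP-treated cells received 200 µg/mL of particles for 6 h, and the Control cells received no particles and were kept for the same 6 h. The other groups, used only where a direct comparison is given, received mesoporous particles (MSNP, 200 µg/mL), nonporous SNP100 (50 µg/mL) or nonporous SNP50 (25 µg/mL), also for 6 h and also with 3 libraries each. The study set each dose at the highest concentration that was not toxic to these cells, so that only HMSNP and MSNP share a dose. The labels and methods do not say whether the 3 libraries of a group came from separate cultures, and p-values therefore measure the spread between libraries only. Library names carry 1 leading number per group, which differs between groups, so that any effect tied to this number and the effect of the particles cannot be told apart.

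Macrophages take up particles into membrane-bound vesicles that mature into lysosomes, and the load of a vesicle can reach the rest of the cell through lipid, ion and nutrient signals. One such route is the integrated stress response, in which kinases that sense amino acid shortage, heme shortage or unfolded protein slow general translation while the transcription factor ATF4 is made, and ATF4 with its C/EBP partners then drives genes for amino acid synthesis, transport and tRNA charging. Other routes relevant to this cell type are NF-kB, which controls cytokine and adhesion genes, the SREBP factors, which respond to membrane sterol and fatty acid content, and p53.

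Total counts on genes were between 32376502 and 42617812 in the 6 libraries. The 3 HMSNP libraries were close to each other, with a mean chi-square per gene of 5.14 to 15.3 between pairs, and the 3 Control libraries were farther apart, at 73.1 to 226. Control replicate 3 had less signal from long transcripts, with a median log2 deviation of -0.76 in the longest 10% of 10652 genes and 0.58 in the shortest 10%, against -0.18 to 0.23 in the other 5 libraries. Control replicate 1 held 19400 CPM (counts scaled to a common library size) of the ribosomal RNA gene Rn18s-rs5, against 638 and 894 CPM in the other Control libraries and 421 to 606 CPM in the HMSNP libraries. Of 12 macrophage markers, all were measured and their sum was 17600 to 22200 CPM in the Control libraries and 17300 to 18600 CPM in the HMSNP libraries. Fcgr3, an Fc receptor, was the 1 marker of the 12 that passed the test. The 5 epithelial markers had too few counts to be tested, and of these Epcam and Krt8 were at 0 in all 6 libraries. Tested were 1 of 6 fibroblast, 4 of 4 endothelial, 1 of 5 T and NK cell and 1 of 4 B cell markers. The sum of the tested markers of each type stayed at or below 0.579 CPM. In bulk libraries such as these, fewer cells of a type and less RNA per cell cannot be told apart.

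In the HMSNP-treated group, 489 genes (2.46% of those tested) were higher and 535 genes (2.7%) were lower than in the Control group at an adjusted p under 0.05 by edgeR's quasi-likelihood test, with p-values adjusted over all tested genes by the Benjamini-Hochberg method. In all, 1024 genes (5.16%) passed this threshold, and 4771 had an unadjusted p under 0.05. Most changes were small, and 47 genes (0.237%) rose and 127 genes (0.64%) fell by at least 2-fold. Every HMSNP library lay above every Control library in 2164 genes (10.9%) and below every Control library in 2381 genes (12%). Groups without overlap were thus common among all tested genes. The count depended on which Control library was left out. It was 471 up (2.4%) and 647 down (3.29%) without Control replicate 1. Without Control replicate 2 it was 2610 (13.3%) and 2330 (11.9%), and without Control replicate 3 it was 876 (4.47%) and 823 (4.2%). In all 3 of these fits and in the full one, 372 genes (1.88%) were called higher and 394 genes (1.99%) lower, and the named genes with the largest changes were taken from these. When only the 6 libraries were fitted, without the 9 libraries of the other groups, 17 genes were called up and 60 down. The plot of calls without each library shows this dependence.

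**Figure D1:**
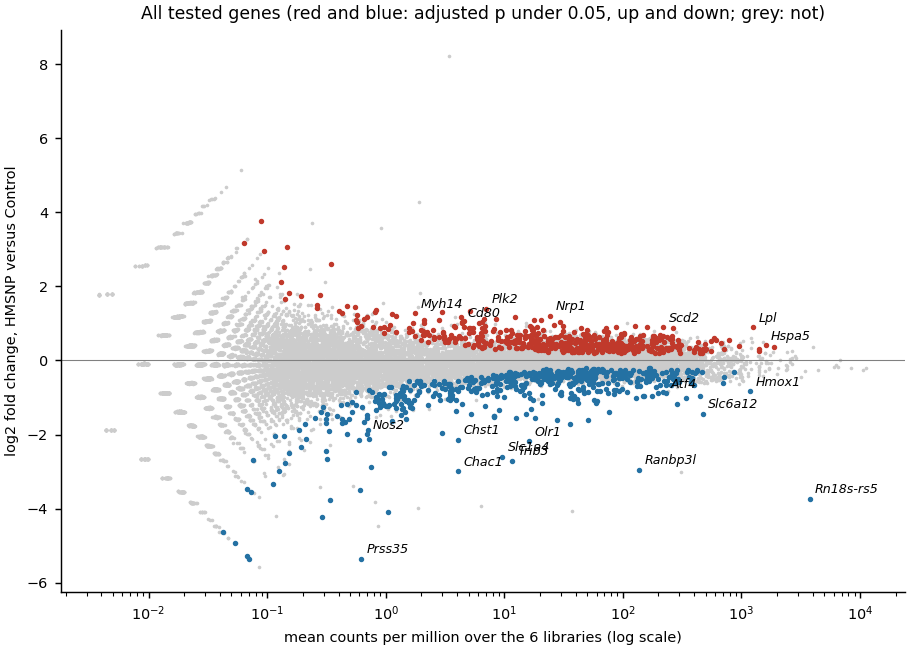
Log2 fold change of HMSNP against Control for each tested gene, against its mean CPM over the 6 libraries on a log scale, with genes past an adjusted p of 0.05 in red (489, up) and blue (535, down) and the rest in grey. Among the labelled genes, Prss35 and Rn18s-rs5, the latter at 19400 CPM in 1 Control library, lie lowest, followed by Chac1, Ranbp3l and Trib3, and Plk2 and Myh14 lie highest.

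**Figure D2:**
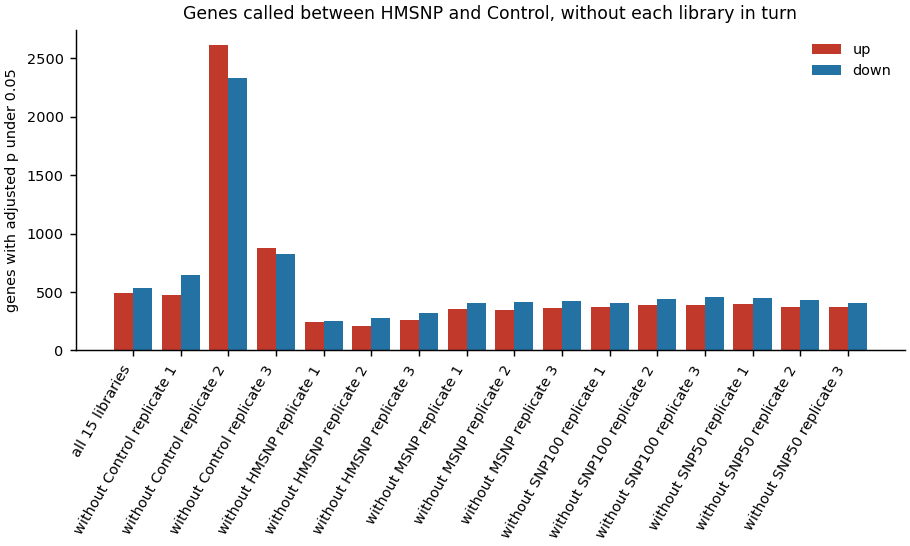
Number of genes called up (red bars) and down (blue bars) between HMSNP and Control with all 15 libraries and after leaving out each library in turn. The bars are highest without Control replicate 2 (2610 and 2330) and lowest without 1 of the HMSNP libraries, with 212 to 258 up and 255 to 317 down.

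Among genes with at least 1 CPM on average that were called with and without each Control library and did not overlap between groups, the largest decreases were headed by parts of the ATF4 program. Chac1, an enzyme that degrades glutathione and a standard ATF4 target, was at 7.28, 7.61 and 6.90 CPM in the Control libraries and at 0.735, 1.17 and 0.825 CPM in the HMSNP libraries. The log2 fold change was -2.99 ± 0.14 (SE from the model of all 15 libraries, n = 3 per group, adjusted p = 6.26e-09 by edgeR's quasi-likelihood test). Lack of overlap was a condition for choosing these genes and adds no support. Trib3, a pseudokinase that restrains ATF4 signalling, fell from 17.9, 21.5 and 20.8 CPM to 3.06, 3.40 and 2.77 CPM. Slc1a4, a carrier of neutral amino acids, fell from 16.8, 20.3 and 12.2 CPM to 2.53, 2.76 and 2.84 CPM. The log2 fold changes of Trib3 and Slc1a4 were -2.71 ± 0.10 and -2.60 ± 0.15 (SE, n = 3). Nupr1, a small stress-induced chromatin protein, and Pck2, the mitochondrial enzyme that makes phosphoenolpyruvate from oxaloacetate, were also among the 12 largest decreases.

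The remaining genes among the 12 largest decreases had other roles. Ranbp3l, a Ran-binding protein that exports SMAD proteins from the nucleus, was at 252, 288 and 193 CPM in the Control libraries and at 31.2, 32.6 and 31.0 CPM in the HMSNP libraries, a log2 fold change of -2.95 ± 0.12. Its level in the MSNP-treated group, 40.6 CPM on average, was also low, while SNP100 and SNP50 averaged 241 and 225 CPM. Olr1, the scavenger receptor for oxidized LDL, fell from 26.3 ± 6.61 to 5.79 ± 0.717 CPM (mean ± SD, n = 3). Chst1, a sulfotransferase that modifies keratan sulfate, fell from 6.69 ± 0.664 to 1.51 ± 0.0624 CPM, and Gucy2g, a receptor guanylyl cyclase, from 55.0 ± 4.42 to 16.8 ± 2.1 CPM. Frat2, an inhibitor of the kinase GSK3, fell from 1.70 ± 0.514 to 0.543 ± 0.19 CPM. Rab15, an endosomal small GTPase, and Gm43800, an unclassified transcript, complete the 12. Both lie over another expressed gene, Rab15 opposite to Fntb (18.2 CPM on average) and Gm43800 on the same strand as 2210408F21Rik (14.8 CPM), so that part of their counts may belong to these neighbours.

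Increases were smaller, and the 12 largest ranged from 1.09 to 1.40 on the log2 scale. Plk2, a polo-like kinase induced by p53 and by stress, was at 4.32, 4.31 and 3.10 CPM in the Control libraries and 9.61, 11 and 10.1 CPM in the HMSNP libraries. This was a log2 fold change of 1.40 ± 0.12 (SE, n = 3 per group, adjusted p = 4.07e-06 by edgeR's quasi-likelihood test). Inka2, an inhibitor of the kinase PAK4, rose from 1.70 ± 0.351 to 4.22 ± 1.15 CPM, and Myh14, a nonmuscle myosin heavy chain, from 1.03 ± 0.0973 to 2.50 ± 0.318 CPM. Pirb, an inhibitory receptor for MHC class I, rose from 5.42 ± 0.232 to 11.8 ± 0.453 CPM. Gca, the calcium-binding protein grancalcin, rose from 1.81 ± 0.368 to 3.85 ± 0.391 CPM. All 12 were chosen for groups that did not overlap, so that the lack of overlap adds no support.

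Some of the largest increases rested partly on the Control library with few long transcripts. Nrp1, a co-receptor for semaphorins and VEGF, was at 16.1, 21.7 and 6.07 CPM in Control and at 32.0, 37.0 and 32.4 CPM in HMSNP. Its log2 fold change of 1.21 ± 0.29 became 0.84 without Control replicate 3, that of Cacna1b, a neuronal calcium channel subunit at 2.68 CPM in Control and 5.97 CPM in HMSNP, became 0.80, and that of the patched-domain gene Ptchd1 from 1.10 to 0.73. All 3 were still called without it, which was a condition for choosing them and adds no support. Filip1l, a gene linked to cell motility, rose from 7.58 ± 2.38 to 17.1 ± 0.257 CPM and lies opposite to Cmss1 (20.7 CPM). Gm5431, which encodes an interferon-inducible GTPase-like protein, and the lncRNA Gm17749 rose from below 1 CPM on average to 1.70 and 1.59 CPM.

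**Figure D3:**
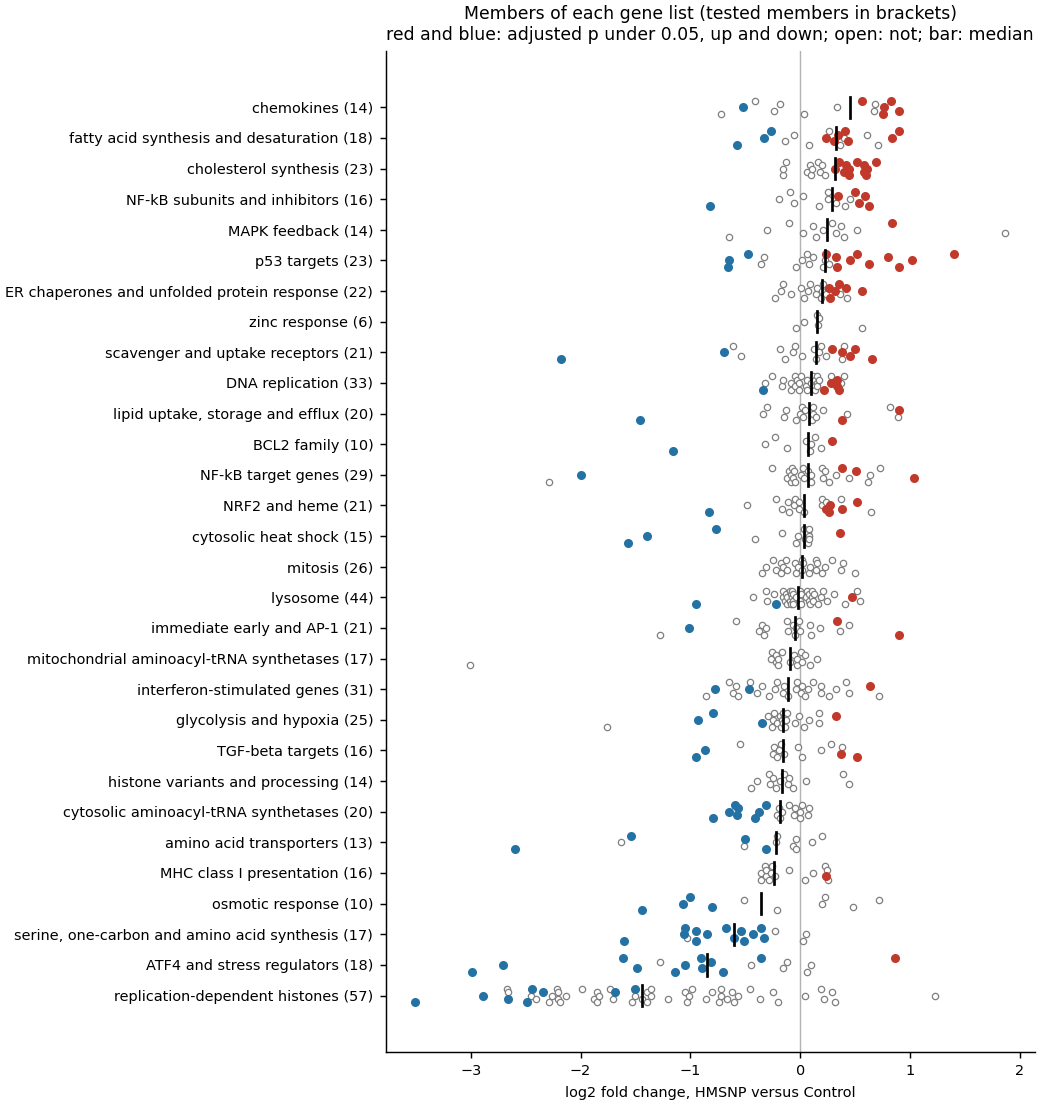
Log2 fold change of HMSNP against Control for each tested member of 30 gene lists, ordered by the list's median (black bar), with members past an adjusted p of 0.05 in red (up) or blue (down) and the others open. The replication-dependent histones have the lowest median at -1.44, followed by the ATF4 stress regulators at -0.85 and the synthesis enzymes at -0.61. The medians of the amino acid transporters and cytosolic synthetases were -0.22 and -0.19. The chemokine list has the highest median at 0.45, which was 0.27 without Control replicate 2, below the fatty acid list at 0.43. The median over all tested genes was -0.0381.

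Of 18 tested regulators and effectors of the integrated stress response, 11 fell and 1 rose (61.1% down and 5.56% up, against 2.7% and 2.46% of all tested genes), with a median log2 fold change of -0.85. These 11 were called without each Control library in turn, and 8 of the list were called down when only the 6 libraries were fitted. Atf4 itself was at 270, 276 and 350 CPM in the Control libraries and at 160, 158 and 164 CPM in the HMSNP libraries. The groups did not overlap, and the log2 fold change was -0.89 ± 0.09 (SE, n = 3, adjusted p = 2.21e-05 by edgeR's quasi-likelihood test). Ddit3, which encodes the pro-apoptotic factor CHOP, was at 9.56, 9.28 and 10.3 CPM in Control and 5.91, 5.60 and 6.42 CPM in HMSNP. Ddit3 overlaps Mars1 and Mbd6 on the opposite strand, which averaged 160 and 66.7 CPM, so that its level depends on how strand was used in counting.

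Other members of the list that fell included partners and downstream effectors of ATF4. Atf5, an ATF4-related factor, fell from 81.4 ± 6.77 to 37.0 ± 0.965 CPM (mean ± SD, n = 3), and it lies opposite to Nup62, which averaged 156 CPM. Cebpg, the C/EBP partner of ATF4, fell from 55.5 ± 0.716 to 43.4 ± 0.985 CPM. Ddit4, an inhibitor of mTORC1 also known as REDD1, fell from 12 ± 0.468 to 4.27 ± 0.136 CPM, and Eif4ebp1, the translation repressor 4E-BP1, from 111 ± 28.2 to 59.1 ± 3.49 CPM. The secreted glycoprotein gene Stc2 had a log2 fold change of -1.05 ± 0.08, and the AP-1 repressor gene Jdp2 one of -0.82 ± 0.07. In each of these genes all HMSNP libraries were below all Control libraries, as they were in 12% of all tested genes.

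Atf3, another stress-induced member of the family, was the 1 gene of the list that rose. It was at 30.8, 31.1 and 31.6 CPM in the Control libraries and 57.2, 58.2 and 54.8 CPM in the HMSNP libraries, a log2 fold change of 0.86 ± 0.06. Members that did not pass the test were Cebpb (log2 fold change -0.45, adjusted p = 0.0812 by edgeR's quasi-likelihood test), Sesn2, Xpot, Ppp1r15a, Gadd45a and Gdf15. Ppp1r15a, which encodes the phosphatase subunit GADD34 that ends the response, was at 20.5 ± 0.992 CPM in Control and 21.4 ± 0.745 CPM in HMSNP. Fgf21 and Vldlr had too few counts to be tested.

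**Figure D4:**
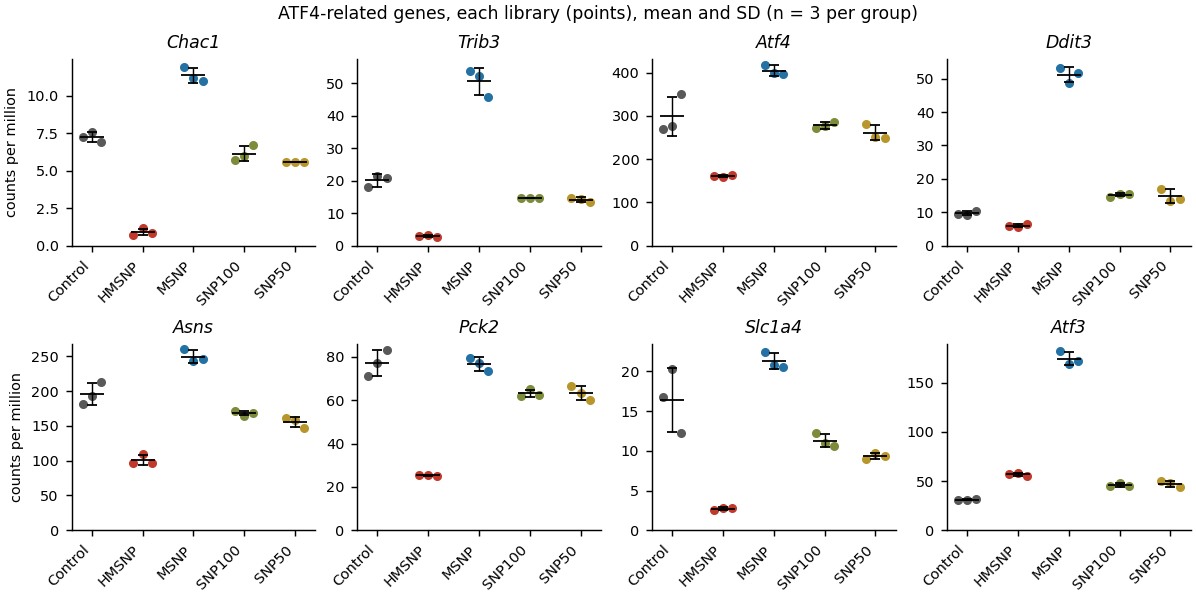
CPM of 8 ATF4-related genes in each library (points) of the 5 groups, with mean and SD (bars, n = 3), on linear axes that start at 0. The HMSNP points are the lowest of the 5 groups in 7 panels, for example Pck2 at 25.1 to 25.7 CPM against 71.0 to 83.1 CPM in Control, and lie above Control in the Atf3 panel.

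The stress genes were also compared directly with the other particles. The average of Trib3, 3.07 CPM with HMSNP, was below 50.6 CPM with MSNP and below 14.7 and 14.2 CPM with SNP100 and SNP50. Against MSNP, at the same dose and time, the log2 fold change of HMSNP was -4.04 ± 0.10 for Trib3, -3.64 ± 0.13 for Chac1, -3.10 ± 0.10 for Ddit3 and -1.33 ± 0.09 for Atf4. Atf3 averaged 56.7 CPM in HMSNP and 174 CPM in MSNP. Of the 18 genes, 10 were called lower in HMSNP than in Control and than in each of the other 3 particle groups, 4 comparisons that share the HMSNP libraries, and 0.711% of all tested genes met this condition. The doses of SNP100 and SNP50 were lower, so that particle type and dose cannot be told apart in those comparisons.

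ATF4 and C/EBP proteins bind a composite element whose core reads TGATGNAA, where N is any base. Promoters were taken as the 250 bases before and 50 bases after the start of each gene's canonical transcript in GENCODE vM39 on GRCm39 and searched for this core on both strands. It occurred in 603 of 19712 promoters of tested genes (3.06%) and 337 of 13135 promoters of protein-coding genes (2.57%). Over the stress regulator, synthesis, transporter and cytosolic synthetase lists together it occurred in 14 of 68 promoters (20.6%), with 10 among the 36 members that were called down (27.8%) and 4 among the 32 others (12.5%). Windows of 60 bases from 5 of the genes called down are shown, 5′ to 3′ on the strand of the gene, because they show how the element sits in promoters of a regulator, an effector and 3 enzymes. Capitals mark the match, which in these 5 windows is the core read on the opposite strand. In Gpt2 and Pycr1, also called down, the match lay on the strand of the gene.
Chac1, chr2:119181504-119181563, plus strand: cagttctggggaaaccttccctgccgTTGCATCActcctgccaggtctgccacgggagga
Ddit3, chr10:127126335-127126394, plus strand: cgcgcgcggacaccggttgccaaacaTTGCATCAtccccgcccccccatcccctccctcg
Pck2, chr14:55777594-55777653, plus strand: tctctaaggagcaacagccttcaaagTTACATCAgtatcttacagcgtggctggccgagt
Aars1, chr8:111760336-111760395, plus strand: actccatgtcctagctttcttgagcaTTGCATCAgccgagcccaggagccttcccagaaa
Got1, chr19:43513113-43513172, minus strand: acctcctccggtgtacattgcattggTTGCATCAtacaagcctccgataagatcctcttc
The first base of the match lay 159 bases before the start in Chac1, 199 in Ddit3, 103 in Pck2, 146 in Aars1 and 77 in Got1. Aars1 held another match, not shown, whose first base lay 25 bases before the start. Trib3, Atf4 and Slc1a4, which were called down as well, held no such core in this window, which says only that these letters are absent there. Atf3, which rose, held 1 match, and Slc7a11, which was not called, held 2.

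The enzymes that make serine, glycine, asparagine and other nonessential amino acids fell together. Of 17 tested genes, 13 were down (76.5%, against 2.7% of all tested genes) and 0 up, with a median log2 fold change of -0.61. Pck2 was at 71.0, 77.3 and 83.1 CPM in the Control libraries and at 25.7, 25.3 and 25.1 CPM in the HMSNP libraries. The HMSNP libraries differed by less than 1 CPM, and the log2 fold change was -1.60 ± 0.07 (SE, n = 3, adjusted p = 5.81e-09 by edgeR's quasi-likelihood test). All 3 enzymes of the phosphorylated serine pathway fell. Phgdh, the first of them, went from 252 ± 33.2 to 158 ± 4.67 CPM, Psat1 from 356 ± 16.4 to 244 ± 5.83 CPM, and Psph, the last, from 55.9 ± 11.2 to 27 ± 0.523 CPM. Psph lies opposite to Cct6a, which averaged 504 CPM.

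Shmt2 and Mthfd2, which pass the serine carbon into the mitochondrial folate pool, fell from 450 ± 34.7 to 295 ± 8.43 CPM and from 198 ± 4.88 to 102 ± 3.80 CPM. Related folate enzymes were not called, with Shmt1 at 24 ± 1.63 and 25.0 ± 0.344 CPM and Mthfd1l at 124 ± 14.7 and 126 ± 5.74 CPM in Control and HMSNP. Asns, asparagine synthetase, was at 181, 193 and 213 CPM in Control and at 97.3, 109 and 96.9 CPM in HMSNP, without overlap. Its log2 fold change was -0.95 ± 0.07. Cth, which makes cysteine from cystathionine, had a log2 fold change of -1.06 ± 0.12, and Gpt2, a mitochondrial alanine transaminase, one of -0.85 ± 0.13. Smaller decreases were found in the proline enzymes Aldh18a1 (-0.51) and Pycr1 (-0.43), in the branched-chain transaminase Bcat1 (-0.36) and in the aspartate transaminase Got1 (-0.33). Of the list, 12 genes were called down without each Control library in turn, all of the 13 but Pycr1, and 5 when only the 6 libraries were fitted.

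Among 13 plasma membrane amino acid carriers, 4 fell (30.8%, against 2.7% of all tested genes) and 0 rose. Without HMSNP replicate 1 or HMSNP replicate 3, 2 were called down. Beside Slc1a4, Slc6a9, the glycine transporter GLYT1, was at 19.6, 22.3 and 14.4 CPM in Control and 5.05, 7.37 and 6.85 CPM in HMSNP, a log2 fold change of -1.54 ± 0.16 without overlap. Slc38a2, the adaptive carrier SNAT2, averaged 343 and 242 CPM, but Control replicate 3, at 244 CPM, lay within the HMSNP range of 238 to 245 CPM. Its decrease was called with all 15 libraries and without Control replicate 3, and was lost without any other library. Slc3a2, the heavy chain shared by several carriers, fell from 388 ± 38.1 to 312 ± 13.4 CPM. Slc7a11, the cystine carrier of the same ATF4 program, was at 107, 164 and 56.5 CPM in Control and 102, 148 and 102 CPM in HMSNP, and the groups overlapped.

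Genes for the charging of tRNA were counted in separate lists for the cytosol and the mitochondria. Of 20 cytosolic aminoacyl-tRNA synthetases, 8 fell (40.0%, against 2.7% of all tested genes) and 0 rose. Of 17 mitochondrial ones 0 were called in either direction by edgeR's test, with 1 up and 3 down without Control replicate 2. Cars1, for cysteine, was at 114, 118 and 104 CPM in the Control libraries and 63.4, 67.2 and 63.1 CPM in the HMSNP libraries. It had the largest decrease of the 8, with a log2 fold change of -0.80 ± 0.07 (adjusted p = 5.96e-06 by edgeR's quasi-likelihood test). Aars1 (alanine, -0.65), Sars1 (serine, -0.59), Yars1 (tyrosine, -0.58), Nars1 (asparagine, -0.57), Mars1 (methionine, -0.41), Gars1 (glycine, -0.38) and Tars1 (threonine, -0.31) followed. The enzymes for lysine and tryptophan, Kars1 and Wars1, were not called, with Kars1 at 182 and 181 CPM and Wars1 at 130 and 132 CPM on average in Control and HMSNP. All 8 were called without each Control library in turn, and 1, Cars1, when only the 6 libraries were fitted. Lars2, the mitochondrial leucine enzyme, had a log2 fold change of -3.01 that rested on 1490 CPM in Control replicate 1, the library with the most Rn18s-rs5, against 77.4 and 80.4 CPM in the others and 66.7 to 69.6 CPM in HMSNP.

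Genes of the endoplasmic reticulum stress branch did not fall with the ATF4 genes. Of 22 chaperones and unfolded protein response genes, 6 rose (27.3%, against 2.46% of all tested genes) and 0 fell. The median log2 fold change was 0.19. The number up was 3 without HMSNP replicate 1, 2 without HMSNP replicate 2, 11 without Control replicate 2 and 12 without Control replicate 3. Hspa5, the luminal chaperone BiP, was at 1300, 1310 and 1500 CPM in Control and at 1880, 1840 and 1770 CPM in HMSNP, a log2 fold change of 0.42 ± 0.06 without overlap. Hsp90b1 (GRP94), Pdia4, Hyou1, Dnajc3 and Sel1l, which fold or clear luminal proteins, rose by 0.26 to 0.56 on the log2 scale, Hyou1 and Sel1l not without Control replicate 1. In the cytosol, Hspa1b, an inducible HSP70, fell from 26.6, 27.9 and 27.7 CPM to 9.67, 9.65 and 8.48 CPM, and its near-identical copy Hspa1a, with which it can share reads, fell too (-1.40), a call that was lost without Control replicate 1 or Control replicate 3. Hspa8, the constitutive HSC70, rose from 1640 ± 36.4 to 2110 ± 90.2 CPM. When only the 6 libraries were fitted, 0 genes of the endoplasmic reticulum list were called by edgeR's test, and among the heat shock genes Hspa1b was.

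Of 10 genes known for the response to hypertonic medium, 4 fell (40.0%, against 2.7% of all tested genes) and 0 rose. The other 6 were not called. Slc6a12, the betaine transporter BGT1, was at 684, 688 and 690 CPM in the Control libraries and at 241, 264 and 257 CPM in the HMSNP libraries. This was a log2 fold change of -1.44 ± 0.06 (SE, n = 3, adjusted p = 1.53e-09 by edgeR's quasi-likelihood test), and the other particle groups averaged 487 (MSNP), 672 (SNP100) and 639 CPM (SNP50). Akr1b1, aldose reductase, which makes sorbitol, fell from 451 ± 47.6 to 224 ± 8.76 CPM. Slc5a3, the myo-inositol transporter, fell from 78.1 ± 22.1 to 37.2 ± 2.06 CPM and shares its strand and position with Mrps6 (60.1 CPM). Sgk1, an ion transport kinase, fell from 17.8 ± 1.47 to 10.2 ± 1.04 CPM. The regulator of these genes, Nfat5, was at 254, 413 and 117 CPM in Control and 377, 403 and 310 CPM in HMSNP, and the groups overlapped. Slc6a6, the taurine transporter, averaged 446 CPM in Control and 510 CPM in HMSNP and was not called.

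Of 16 NF-kB subunits and inhibitors, 5 rose and 1 fell (31.2% and 6.25%, against 2.46% and 2.7% of all tested genes). The other 10 were not called, and the median log2 fold change was 0.29. The median was 0.16 with an offset for transcript length, and the number up was 3 without HMSNP replicate 2 or HMSNP replicate 3, 10 without Control replicate 2 and 8 without Control replicate 3. Nfkb2, the precursor of p52 in the noncanonical pathway, was at 41.6, 42.5 and 41.3 CPM in Control and at 64.2, 63.0 and 65.7 CPM in HMSNP. Its partner Relb was at 11.7, 12.4 and 15.8 CPM in Control and 20.1, 20.3 and 19.6 CPM in HMSNP. For both genes the groups stood apart, with log2 fold changes of 0.62 ± 0.06 and 0.59 ± 0.10. The inhibitors Nfkbie (0.50), Tnfaip3 (A20, 0.53) and Tnip3 (0.35) rose, and Nfkbiz, an inducible nuclear cofactor, fell from 17.6 ± 4.66 to 9.91 ± 1.52 CPM but was not called without Control replicate 1. The canonical subunits were not called, with Rela at 80.4 ± 6.88 and 81.6 ± 4.30 CPM and Nfkb1 at 144 ± 22.2 and 171 ± 3.32 CPM. Nfkb2, Relb, Nfkbie and Tnip3 were also called higher than in each other particle group, a condition met by 0.64% of all tested genes. Nfkbie and Tnip3 had log2 fold changes against MSNP of 0.89 ± 0.10 and 1.72 ± 0.07. Nfkb2 was the 1 gene of this list called when only the 6 libraries were fitted.

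Of 29 tested NF-kB target genes, 3 rose and 1 fell (10.3% and 3.45%, against 2.46% and 2.7% of all tested genes). Without Control replicate 2, 7 were up, and without Control replicate 3, 6 were up. Icam1, the adhesion molecule for leukocyte integrins, was at 74.0, 73.4 and 80.7 CPM in Control and 107, 107 and 110 CPM in HMSNP, a log2 fold change of 0.51 ± 0.07. Cd80, a costimulatory molecule and marker of M1-type macrophages, was at 3.08, 2.98 and 2.55 CPM in Control and 5.73, 5.54 and 6.32 CPM in HMSNP, a log2 fold change of 1.03 ± 0.15. Cd80 lies opposite to Timmdc1, which averaged 21.3 CPM. Birc3, an inhibitor of apoptosis, rose by 0.38 but was not called without Control replicate 1 or without any 1 particle-treated library. Nos2, inducible nitric oxide synthase, was counted 44, 36 and 38 times in Control and 6, 17 and 9 times in HMSNP, a ratio of 0.249 with an exact 95% interval of 0.163 to 0.370 for counting error only. Tnf was at 50.9, 42 and 56.9 CPM in Control and 43, 44.4 and 49.7 CPM in HMSNP, and Il6 had a count of 0 in all 6 libraries, which allows at most 0.0687 to 0.0913 CPM per library. Il1b, at 0.244 to 0.833 CPM in Control and 0.321 to 1.33 CPM in HMSNP, overlapped between groups.

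Among 14 chemokine genes and receptors, 5 rose and 1 fell (35.7% and 7.14%, against 2.46% and 2.7% of all tested genes). The median log2 fold change was 0.45. The median was 0.27 without Control replicate 2, and 3 genes were up without HMSNP replicate 2. Ccl3, which encodes MIP-1 alpha, was at 48.0, 46.0 and 71.6 CPM in Control and at 91.7, 97.0 and 91.7 CPM in HMSNP, and Ccl4 went from 12.2 ± 4.18 to 21.7 ± 1.37 CPM. Ccl9, an attractant made by macrophages, was at 210, 205 and 294 CPM in Control and at 358, 362 and 329 CPM in HMSNP. Ccl2, the monocyte attractant MCP-1, rose from 4.07 ± 0.883 to 6.89 ± 0.904 CPM. The log2 fold changes of these 4 genes were 0.56 to 0.82, and in all 4 every HMSNP library exceeded every Control library. The same was true of 6 of the 14 genes in the list and of 10.9% of all tested genes. Ccrl2, a chemerin-binding receptor, rose from 0.671 ± 0.0216 to 1.25 ± 0.129 CPM, and Cxcl16, a membrane-bound chemokine, fell from 186 ± 32.1 to 130 ± 2.80 CPM. None of the 14 was called when only the 6 libraries were fitted. Against MSNP, Ccl2 was higher in HMSNP (6.89 and 1.92 CPM) and Ccl3 lower (93.5 and 290 CPM).

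**Figure D5:**
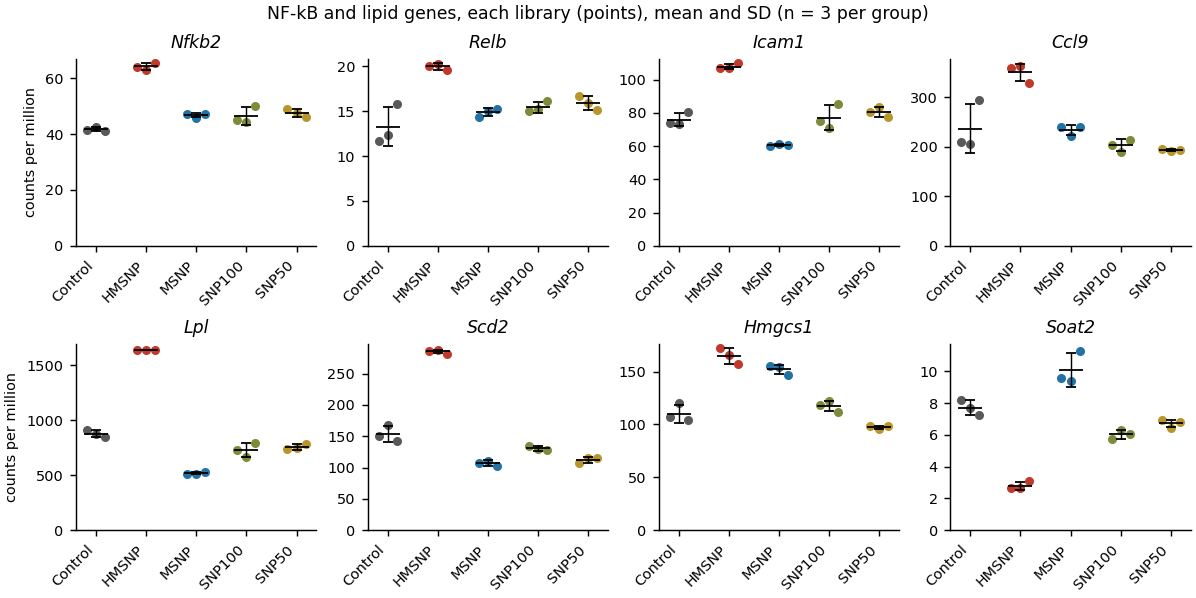
CPM of 4 NF-kB related genes (top) and 4 lipid genes (bottom) in each library (points) of the 5 groups, with mean and SD (bars, n = 3), on linear axes that start at 0. HMSNP is the highest group for Nfkb2, Relb, Icam1, Ccl9, Lpl and Scd2 and the lowest for Soat2, and for Hmgcs1 it averages 165 CPM against 110 CPM in Control and 152 CPM in MSNP.

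Genes of sterol synthesis and uptake rose by modest amounts. Of 23 tested, 12 rose (52.2%, against 2.46% of all tested genes) and 0 fell, with a median log2 fold change of 0.32. Of the 12, 11 were called without each Control library in turn. Hmgcs1, which feeds the mevalonate pathway, was at 107, 120 and 104 CPM in Control and 172, 166 and 157 CPM in HMSNP. The groups stood apart, and the log2 fold change was 0.58 ± 0.07. Hsd17b7 (0.69), Insig1 (0.61), Idi1 (0.52), Stard4 (0.44), Srebf2 (0.42), Cyp51 (0.40), Sqle (0.35) and Lss (0.32) rose as well, the last not without Control replicate 1 or without any 1 particle-treated library. Srebf2 encodes the factor SREBP2 that drives this set, and Insig1 the protein that retains it in the endoplasmic reticulum. None of the 12 was called when only the 6 libraries were fitted, a fit in which the list's median was 0.31, and 20 of the 23 were called up without Control replicate 3.

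Fatty acid genes were split, with 7 of 18 up and 3 down (38.9% and 16.7%, against 2.46% and 2.7% of all tested genes). Scd2, a desaturase that makes monounsaturated fatty acids, was at 151, 168 and 142 CPM in Control and 286, 288 and 282 CPM in HMSNP. Its log2 fold change was 0.89 ± 0.07 (SE, n = 3, adjusted p = 1.71e-06 by edgeR's quasi-likelihood test), and in MSNP it averaged 107 CPM. Scd1 rose from 8.13 ± 2.17 to 14.5 ± 1.27 CPM. The elongases Elovl5 (0.31) and Elovl6 (0.40), the acyl-CoA synthetases Acsl1 (0.43) and Acsl3 (0.34) and the factor Srebf1 (0.23) rose, while the malic enzyme Me1 (-0.58), Acsl5 (-0.33) and the desaturase Fads2 (-0.27) fell, the last not without Control replicate 1 or Control replicate 2. Without 1 of the HMSNP libraries only 2 or 3 of the 18 were called up, and without Control replicate 2, 12 were.

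Lipid uptake and storage showed single large changes. Lpl, the lipoprotein lipase that macrophages secrete, was at 909, 878 and 852 CPM in the Control libraries and at 1640 CPM in each of the 3 HMSNP libraries. The groups stood apart, and the log2 fold change was 0.90 ± 0.06 against Control and 1.66 ± 0.06 against MSNP, whose mean was 520 CPM. Soat2, which esterifies cholesterol, was at 8.19, 7.69 and 7.24 CPM in Control and 2.65, 2.65 and 3.09 CPM in HMSNP, a log2 fold change of -1.46 ± 0.10. Cd36, a scavenger receptor and fatty acid carrier, rose from 244 ± 9.85 to 316 ± 19.8 CPM, and it averaged 174 CPM in MSNP, 151 in SNP100 and 127 in SNP50. Of 20 genes in this list, only these 3 were called (10.0% up and 5.0% down, against 2.46% and 2.7% of all tested genes). Without Control replicate 2, 4 were up and 2 down.

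Among 21 scavenger and uptake receptors, 5 rose and 2 fell (23.8% and 9.52%, against 2.46% and 2.7% of all tested genes). The number up was 2 without HMSNP replicate 2, 9 without Control replicate 2 and 8 without Control replicate 3. Beside Cd36, the increases were in Clec7a (dectin-1, the beta-glucan receptor), Clec4n (dectin-2), Fcgr3 and the integrin subunit Itgb2. Clec7a was at 13.3, 11.9 and 13.8 CPM in Control and 19.5, 21.8 and 20.1 CPM in HMSNP, without overlap, and averaged 5.29 CPM in MSNP. Itgb2 and Clec4n were not called without Control replicate 1, nor was Itgb2 without any 1 particle-treated library. The decreases were in Olr1, described above, and in Cav1, the coat protein of caveolae, which fell from 4.2 ± 0.504 to 2.59 ± 0.341 CPM.

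Of 23 tested p53 targets, 10 rose and 3 fell, where 2.46% of all tested genes rose and 2.7% fell. The number up was 5 without HMSNP replicate 1 or HMSNP replicate 3. Besides Plk2, the largest increases were in Trp53inp1 (1.02 ± 0.16), a stress-induced partner of p53, Pmaip1 (0.90 ± 0.07), the BH3-only protein NOXA, and Tnfrsf10b (0.80 ± 0.09), a death receptor for TRAIL. Tnfrsf10b was at 5.12, 4.94 and 5.10 CPM in Control and at 9.70, 8.43 and 8.29 CPM in HMSNP. Pmaip1 was at 12.1, 10.8 and 12 CPM in Control and 21, 21.4 and 22.7 CPM in HMSNP. Neither gene had overlapping groups. Ccng1, Eda2r, Polk, Mdm2, Aen and Gtse1 rose by 0.23 to 0.63, while Cdkn1a was not called. The increase of Aen turned into a log2 fold change of -0.11 when each library's trend with transcript length was removed, and Polk lies opposite to Cert1 (60.6 CPM). The antiproliferative genes Btg1 (-0.66) and Btg2 (-0.65) and the stress protein Sesn1 (-0.48) fell. When only the 6 libraries were fitted, Plk2 and Pmaip1 were called. In the BCL2 family, Bmf, a BH3-only protein, fell from 29.1 ± 2.58 to 13 ± 1.40 CPM and Bid rose by 0.29, while the other 8 tested members were not called.

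Of 21 NRF2 and heme genes, 5 rose and 1 fell (23.8% and 4.76%, against 2.46% and 2.7% of all tested genes). The number up was 0 without HMSNP replicate 2 and 2 without HMSNP replicate 3. Hmox1, heme oxygenase-1, was at 1540, 1700 and 1280 CPM in Control and at 615, 1110 and 811 CPM in HMSNP. The groups did not overlap, but the HMSNP libraries were less alike than for most genes (845 ± 249 CPM, SD), and the decrease of -0.83 ± 0.17 was not called without HMSNP replicate 1 or HMSNP replicate 3. Srxn1 and Txnrd1, which reduce peroxiredoxin and thioredoxin, and Gsr, G6pdx and Nfe2l2, the last of which encodes NRF2, rose by 0.23 to 0.52. Gsr and G6pdx were not called without Control replicate 1. Among 25 genes of glycolysis and hypoxia, 1 rose and 3 fell, where 2.46% of all tested genes rose and 2.7% fell. Without Control replicate 2, 7 were down, where 11.9% of all genes tested in that fit fell. Without Control replicate 3, 6 were down, where 4.2% fell. Vegfa fell from 54.0 ± 5.60 to 31.1 ± 1.74 CPM, Slc2a1 (GLUT1) from 301 ± 11.1 to 236 ± 20.2 CPM and Ankrd37 from 4.78 ± 0.586 to 2.50 ± 0.146 CPM, while the hexokinase Hk3 rose from 63.1 ± 1.99 to 79.0 ± 3.08 CPM. Vegfa encodes an angiogenic growth factor. Ankrd37, a hypoxia-induced gene, lies opposite to Ufsp2, which averaged 67.7 CPM.

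Replication-dependent histone genes had the lowest median of all lists, -1.44. Of 57 tested genes, 8 were called down and 0 up, where 2.7% of all tested genes fell and 2.46% rose. Their messages lack a poly(A) tail, and poly(A) libraries hold few of them. Linker histone H1f5 was counted 52, 20 and 46 times in Control and 1, 7 and 3 times in HMSNP, a ratio of 0.0855 with an exact 95% interval of 0.0416 to 0.159 for counting error only. H1f4 was counted 72, 24 and 41 times in Control and 9, 3 and 8 times in HMSNP. The count was lowest in Control replicate 2 for each. Summed over the 57 genes, the level was 54.9, 37.8 and 67.9 CPM in Control and 34.9, 40.0 and 34.9 CPM in HMSNP, so that the groups overlapped. Rn7sk, another RNA without a poly(A) tail, was at 9.74, 0.318 and 0.573 CPM in Control and at 0.138 to 0.353 CPM in HMSNP, and the part of this difference in the histone result was not tested. Without Control replicate 1, 4 genes were called and the list's median was -0.87, and without Control replicate 2, 22 genes were called with a median of -1.74. Members of this family share sequence, and their counts are uncertain for that reason too.

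Against Control, 2.27% of the lysosomal genes rose and 4.55% fell, and 3.23% of the interferon-stimulated genes rose and 6.45% fell. Of all tested genes, 2.46% rose and 2.7% fell. Most genes of both lists were called between HMSNP and MSNP. Of 44 lysosomal genes, 1 rose and 2 fell against Control, with a median log2 fold change of -0.02, and 7 were up and 3 down without Control replicate 2. Against MSNP, at the same dose and time, 36 were lower and 3 higher, with a median of -0.91, where 11% of all tested genes were called lower and 9.22% higher. Gpnmb, a glycoprotein of stressed lysosomes, averaged 619 ± 54.2 CPM in Control, 706 ± 25.5 CPM in HMSNP and 4560 ± 137 CPM in MSNP. The proteases Ctsb and Ctsd had log2 fold changes of -1.06 ± 0.06 and -1.07 ± 0.10 against MSNP. Ctsh, an aminopeptidase of the lysosome that fell against Control, was at 495, 538 and 740 CPM in Control and 300, 326 and 290 CPM in HMSNP. Atp6v0d2, a subunit of the vacuolar proton pump, rose from 30.3 ± 3.43 to 42.0 ± 1.15 CPM and averaged 197 CPM in MSNP.

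Of 31 interferon-stimulated genes, 1 rose and 2 fell against Control (6 and 6 without Control replicate 2). Against MSNP, 23 were higher and 2 lower, with a median of 0.97, where 9.22% of all tested genes were higher and 11% lower. Oas3, an antiviral 2-5A synthetase, rose from 25.3 ± 6.85 to 39.3 ± 0.283 CPM but was not called without Control replicate 1. Usp18, a negative regulator of interferon signalling, was at 12.3, 12.9 and 15.7 CPM in Control and 10.3, 10.4 and 9.01 CPM in HMSNP, and it averaged 35.1 CPM in MSNP. Irf7, the interferon-induced regulator of this set, averaged 8.07 ± 1.09 CPM in Control, 5.86 ± 0.319 CPM in HMSNP and 2.98 ± 0.125 CPM in MSNP. Between HMSNP and MSNP, 4010 genes (20.2% of those tested) were called in all. Against the nonporous particles, given at lower doses, 460 genes (2.32%) were higher and 437 (2.2%) lower in HMSNP than in SNP100, 897 (4.52%) in all, and 922 (4.65%) were higher and 838 (4.22%) lower than in SNP50, 1760 (8.87%) in all. Between MSNP and the same Control libraries, 4527 genes (22.8%) were called.

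Beside Ranbp3l, 3 genes are given because the study names them for this group. Prss35 encodes a protease-like secreted protein. It was counted 36, 43 and 49 times in the Control libraries and 2, 1 and 0 times in the HMSNP libraries. The ratio was 0.0215, a level 46.5-fold lower, with an exact 95% interval of 15.6 to 229 for counting error only, and its log2 fold change was called against Control and against each other particle. Pmp22, a membrane protein of peripheral myelin that is also made by other cells, rose from 35.9 ± 3.37 to 64.0 ± 3.78 CPM, against 292 CPM in MSNP and 60.2 and 57.0 CPM in SNP100 and SNP50. Pald1, which encodes paladin, a phosphatase-like protein of endosomes, fell from 108 ± 0.907 to 69.5 ± 3.55 CPM, against 21.6 CPM in MSNP and 79.7 and 82.4 CPM in SNP100 and SNP50.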

How the data were processed

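RNA from RAW 264.7 macrophages was sequenced as directional poly(A) libraries, 3 in each of 5 groups. The deposited values are raw counts of reads per gene, made by the authors with cutadapt 1.16, STAR 2.7.9a, featureCounts 1.6.3 and the GRCm39 build per the submitters' processing notes. The annotation and the strand setting used in counting are not given in the sources used here. Doses came from the study's methods, and groups and time from the labels.

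All 57186 genes were read, and 30400 were at 0 in every library. Symbols and coordinates came from GENCODE vM39, and the 556 genes without a symbol held 0.0224% of counts. The 19839 genes whose counts added up to 10 or more across the 15 libraries entered the test with edgeR 4.0.16 in R 4.3.3, with TMM normalization, 1 model over the 5 groups and the quasi-likelihood F test, at a Benjamini-Hochberg adjusted p under 0.05. Standard errors are the log2 fold change divided by the square root of F. They carry the spread of all 15 libraries and not only that of the groups compared. CPM use TMM-scaled library sizes, and intervals on counts are exact at 95% and cover counting error only. The replicate number, only a library number in the labels, was not used as a block in the main fit. Same-numbered Control and HMSNP libraries correlated at -0.079, 0.306 and 0.079 in their deviations over 10659 genes.

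The gene lists, markers and rules were chosen with earlier results of these data known. Named genes are the 12 largest increases and 12 largest decreases that were called with all libraries and without each Control library, had a mean of at least 1 CPM over the 6 libraries and did not overlap between groups, plus list members, markers and 4 genes named in the study. Rn18s-rs5, Lars2, Rn7sk and the comparison with SNP50 were chosen after the values were seen. Alternatives were DESeq2 1.42.0 with apeglm 1.24.0, RLE normalization, other filters on low counts, the 6 libraries alone, a replicate block, each library left out and, added after seeing the data, an offset for transcript length. The scripts were tested on simulated data. Results for some genes are not reported here.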

Additional observations from a re-analysis of the deposited data

Results flagged for a closer look

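HMSNP and MSNP, given at the same dose for the same time, moved some genes in opposite directions from the Control libraries, which both comparisons share. In 68 genes the level was lower than Control with HMSNP and higher than Control with MSNP, and in 57 genes it was higher with HMSNP and lower with MSNP. The 2 contrasts share their Control libraries, and since the genes were chosen for opposite calls, a call between HMSNP and MSNP, which all of them had, follows from that choice and adds no support. The first group held the stress genes Chac1, Trib3, Ddit3, Atf4 and Atf5, the enzymes Mthfd2, Asns, Phgdh, Cth, Gpt2 and Got1 and the synthetases Cars1, Aars1, Sars1, Yars1, Nars1, Gars1 and Tars1. The second held Lpl, Scd2, Cd36, Clec7a, Ccl2, Icam1, Nfkbie, Tnip3, Birc3, Stard4, Tap1 and Filip1l. In the other 537 genes called in both, the direction was shared.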

How the results depend on the processing

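With DESeq2, 921 genes were called up and 1024 down between HMSNP and Control, and 1395 between HMSNP and SNP100. With only the 6 libraries of a comparison, 17 were up and 60 down, 45 changed at least 2-fold, 7142 were called against MSNP and 4727 against SNP100. With apeglm shrinkage, 95 changed at least 2-fold. With an offset for transcript length, 1126 were up, 869 down and 1729 called against SNP100, and with the offset and without Control replicate 3 these counts were 1116, 1039 and 4022, with 7087 against MSNP. The direction of Aen turned to -0.11 under the offset. Leaving out 1 library at a time gave 212 to 2610 genes up, 255 to 2330 down, 111 to 548 changed at least 2-fold, 3162 to 6644 called against MSNP and 500 to 4006 against SNP100. The replicate block, from numbers that the samples only share, gave 425 up and 459 down. The cause of these differences was not tested. Of the 172 named genes that were called, 151, 169 and 170 were still called without Control replicate 1, 2 and 3, 128, 122 and 129 without HMSNP replicate 1, 2 and 3, and 42 with only the 6 libraries. The 12 largest increases and 12 largest decreases among them were chosen for being called without each Control library. For these genes the calls without a Control library were fixed by the choice and add no support. Genes with few counts, such as the histone genes, are limited by depth.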

Other observations

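Of 16 genes of the TGF-beta pathway, 2 rose and 2 fell with HMSNP (12.5% each, against 2.46% and 2.7% of all tested genes). The median log2 fold change was -0.16. The median was -0.08 without Control replicate 2 or Control replicate 3, with 5 and 6 genes down. Pmepa1, a feedback inhibitor of TGF-beta signalling, was at 217, 220 and 265 CPM in Control and at 116, 130 and 117 CPM in HMSNP. The groups stood apart, with a log2 fold change of -0.95 ± 0.09 (SE, n = 3), and the gene averaged 14.7 CPM in MSNP. The ligand Tgfb1 rose from 248 ± 23.3 to 320 ± 10.6 CPM (mean ± SD). The mediator Smad3 rose by 0.51 but lost its call in at least 1 of the fits without a Control library.

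Among 21 immediate early and AP-1 genes, 2 rose and 1 fell (9.52% and 4.76%, against 2.46% and 2.7% of all tested genes). Without Control replicate 2, 5 were down. Fosl2, an AP-1 subunit, fell from 191, 202 and 129 CPM to 86.3, 81.7 and 89.8 CPM, and Egr1, a growth factor-induced zinc finger factor, rose from 13.8, 12.8 and 12.7 CPM to 22.9, 23.5 and 27 CPM. Neither gene had overlapping groups. The zinc finger factor Klf6 rose by 0.33, while Fos was at 104 ± 7.97 CPM in Control and 103 ± 5.07 CPM in HMSNP, against 10.1 CPM in MSNP. Dusp16, a phosphatase of JNK and p38, was the 1 of 14 MAPK feedback genes that was called (7.14%, against 2.46% of all tested genes). It rose from 15.2 ± 5.35 to 27 ± 1.51 CPM. In this list 0 genes were called by edgeR's test without HMSNP replicate 1 or HMSNP replicate 2.

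Of 33 DNA replication genes, 5 rose and 1 fell (15.2% and 3.03%, against 2.46% and 2.7% of all tested genes). The number up was 11 without Control replicate 2, 10 without Control replicate 3 and 3 without HMSNP replicate 2 or HMSNP replicate 3. The helicase and loading genes Mcm10, Mcm2, Mcm4 and Cdc6 and the ribonucleotide reductase subunit Rrm2 rose by 0.22 to 0.35, and the GINS subunit gene Gins3 fell by 0.34 on the log2 scale. Of 26 mitosis genes 0 were called by edgeR's test, and Mki67, a proliferation marker, was at 585, 888 and 286 CPM in Control and 814, 903 and 759 CPM in HMSNP, with overlap. Also 0 were called of 6 zinc response genes and of 14 histone variant and processing genes. Of 16 genes of MHC class I presentation, 1 rose (6.25%, against 2.46% of all tested genes). It was the peptide transporter Tap1, which rose from 35.5 ± 0.502 to 41.8 ± 1.09 CPM. Without Control replicate 2, 8 mitosis genes were up and 3 down, 2 histone variant genes up and 6 down, 2 MHC class I genes up and 8 down, and 2 zinc response genes up.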
